A study of Homo sapiens with 8 samples.

Results

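Metallothioneins and the zinc response were followed in Kyse510 cells, an established line of human esophageal squamous cell carcinoma (ESCC), by RNA sequencing of 8 libraries. The rule lists genes by name and uses no values, although the list was drawn up with earlier results of these data known. The rule names 8 genes, which are the metallothioneins MT1E, MT1F, MT1G, MT1M, MT1X and MT2A, the metal-responsive transcription factor MTF1 and the zinc exporter SLC30A1. Of these, 5 are listed in both tables (MT2A, MT1X, MT1F, MTF1 and SLC30A1), and MT1E, MT1G and MT1M were not analysed here. The tables hold 31582 genes for the inhibitors and 28942 genes for the knockdowns, of which 26360 are in both. In the inhibitor arm, cells received vehicle (DMSO), SP2509 at 7 µM, UNC0642 at 7 µM, or both inhibitors, for 2 days. SP2509 inhibits the histone demethylase LSD1 (gene KDM1A) and UNC0642 inhibits the histone methyltransferase G9a (gene EHMT2). No separate dose is given for the combination. In the genetic arm, cells carried an shRNA against LSD1 or against G9a that is switched on by doxycycline (Dox), went through puromycin selection of 14 days, and were sequenced without Dox or after 2 days of it. Whether each line is a single clone is not stated. No library holds a line with Dox and without a targeting shRNA, so an effect of Dox and an effect of the knockdown cannot be told apart.

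Each condition has 1 library, so no difference has a replicate check and no p-value is given. Each treated library was compared with its own control, which was vehicle for the inhibitors and the same line without Dox for the knockdowns. Values are FPKM, which scale the fragments of a gene by its length and by the size of the library. A gene is said to pass the fold when its FPKM + 1 differed by at least 1.3-fold in either direction. Log2 folds below are on this log2(FPKM + 1) scale, which understates the change of low genes, and FPKM ratios are given without the added 1. Intervals are exact 95% intervals from estimated reads, and they cover counting error only. The 3 comparisons with inhibitors share 1 vehicle library. Not all genes centred on 0. Taking genes that reached 5 FPKM in the treated and the control library, the median log2 fold was -0.09 with SP2509, 0.04 with the combination, 0.11 in the shLSD1 line and 0.14 in the shG9a line, and it was closer to 0 with UNC0642. The trimmed mean of the log2 ratios was -0.19, -0.04, 0.14 and 0.19 in the same order, and -0.02 with UNC0642. Of the 25 pairs of gene and comparison, 20 stayed on the same side of the fold when this median or this trimmed mean was subtracted. These are called centring and trimmed mean scaling below, and the other 5 pairs are named where they occur. The trimmed mean comes from ratios without the added 1. Subtracting it therefore shifts low genes by more than rescaling their FPKM would, and calls under rescaled FPKM were not computed.

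The libraries held an estimated 15662035 to 17889466 reads. The targeted genes followed the labels. KDM1A read 26.0 FPKM without Dox and 6.29 FPKM with Dox in the shLSD1 line, and EHMT2 read 7.85 and 4.76 FPKM in the shG9a line. EHMT2 was also at 5.38 FPKM with the combination against 11.1 FPKM with vehicle. Of 8 squamous epithelial markers, at least 7 reached 1 FPKM in every library, with summed levels from 904 to 5158 FPKM. The blood markers stayed at or under 0.0522 FPKM, although only 2 of the 3 were listed for the inhibitor libraries. Of 5 fibroblast markers, 1 or 2 reached 1 FPKM, and of 3 endothelial markers, 1 or 2 did, with CDH5 reaching 14.0 FPKM in the shLSD1 line with Dox. The part of these markers in the results below was not tested.

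Metallothioneins are small cysteine-rich proteins that bind zinc, copper and cadmium and buffer free zinc in the cell. When free zinc rises, MTF1 binds it through its zinc fingers, enters the nucleus and binds metal response elements (MREs), which raises transcription of the metallothioneins and of SLC30A1. SLC30A1 (also called ZnT1) sits in the plasma membrane and carries zinc out of the cell. Metallothioneins are also known to respond to glucocorticoids and to oxidative stress.

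The promoters were searched for the letters through which MTF1 is known to act. RefSeq (GRCh38.p14) gave the 250 bases before the start of 4 of the 5 genes, and MT1F had no entry. The MRE core was searched as TGCACNC and TGCGCNC on both strands. The 3 sequences below are those with a match, printed along the strand of each gene, with the matches in capitals (a match on the opposite strand appears as its reverse complement). They lie at chr16:56608334-56608583 (+ strand, MT2A), chr16:56682220-56682469 (+ strand, MT1X) and chr1:211579162-211579411 (− strand, SLC30A1).
MT2A: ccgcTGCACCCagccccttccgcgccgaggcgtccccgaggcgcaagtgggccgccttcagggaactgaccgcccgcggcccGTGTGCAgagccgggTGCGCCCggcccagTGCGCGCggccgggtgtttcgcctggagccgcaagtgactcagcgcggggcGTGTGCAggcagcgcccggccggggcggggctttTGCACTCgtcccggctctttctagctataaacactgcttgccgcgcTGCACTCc
MT1X: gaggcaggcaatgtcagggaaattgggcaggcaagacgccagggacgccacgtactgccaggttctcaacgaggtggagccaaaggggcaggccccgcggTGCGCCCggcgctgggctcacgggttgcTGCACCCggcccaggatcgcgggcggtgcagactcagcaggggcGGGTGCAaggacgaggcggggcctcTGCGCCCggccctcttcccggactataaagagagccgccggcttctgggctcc
SLC30A1: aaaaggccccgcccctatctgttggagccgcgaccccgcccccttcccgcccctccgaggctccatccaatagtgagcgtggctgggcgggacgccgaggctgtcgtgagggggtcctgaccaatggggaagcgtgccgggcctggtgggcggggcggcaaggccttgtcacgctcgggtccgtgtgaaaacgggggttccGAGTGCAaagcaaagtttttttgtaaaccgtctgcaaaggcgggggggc

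MT2A held 7 MRE cores, MT1X held 4, and SLC30A1 held 1 on the opposite strand. No match was found in the 250 bases before MTF1. Of 35116 RefSeq promoters of the same length, 24.8% held at least 1 core, 0.208% held at least 4 and 0.0228% held at least 7. An AP-1 site (TGANTCA) was found once, in MT2A, and 6.57% of promoters held one. The core of the antioxidant response element (TGACNNNGC, both strands) was found once in MT2A, where it overlapped the AP-1 site, once in MT1X and once in SLC30A1, and 10.9% of promoters held one. These matches are letters in a window and no binding was measured. The gene model behind the deposited MT2A values begins upstream of the printed window. Those of MT1X and MTF1 begin inside their windows, and that of SLC30A1 begins downstream of its window. No window therefore ends at the start of the deposited model.

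**Figure D1:**
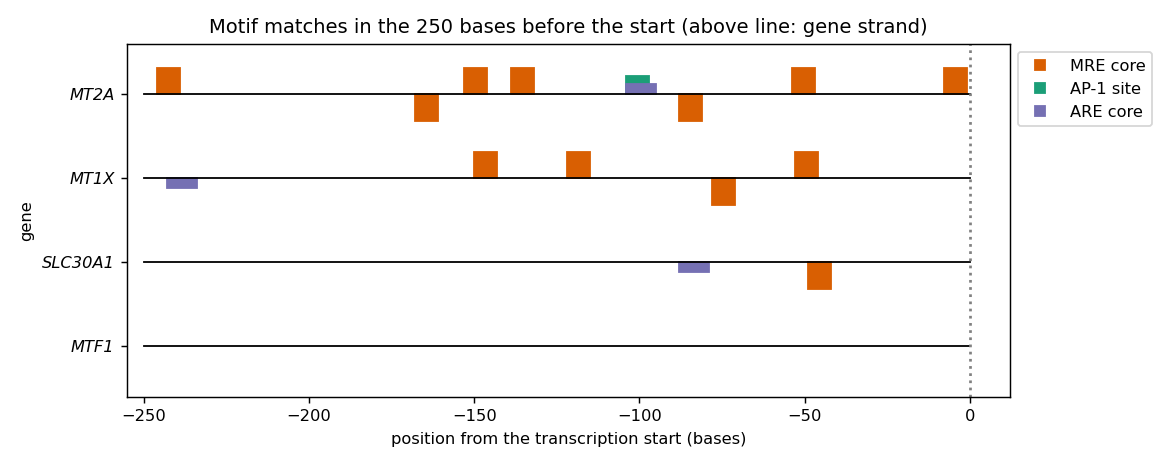
Positions of motif matches in the 250 bases before the RefSeq start of 4 genes (x axis, bases from the start; each line is 1 gene, with matches on its own strand above the line and on the opposite strand below it). MT2A has 7 MRE cores spread from 246 to 2 bases before the start, MT1X has 4, SLC30A1 has 1 and MTF1 has none.

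MT2A was by far the main metallothionein of these cells. It encodes the single isoform of the MT2 class and is the metallothionein most human tissues express. MT2A lies at chr16:56608199-56609497 (+ strand, ENSG00000125148, GRCh38, protein coding). MT2A, MT1X and MT1F together had 2198 to 9130 reads in a library, and MT2A took 94.1% to 98.4% of them. Its level ranked 234th among 31582 genes with vehicle and 57th with UNC0642.

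MT2A read 124 FPKM with vehicle, 258 FPKM with SP2509, 386 FPKM with UNC0642 and 239 FPKM with the combination. In the knockdown table it read 135 FPKM in the shLSD1 line without Dox and 114 FPKM with Dox, and 96.3 FPKM in the shG9a line without Dox and 207 FPKM with Dox. All 3 inhibitor libraries lay above vehicle, and the shG9a line with Dox lay above the other 3 knockdown libraries. In cultures of this kind, more cells that express a gene and more RNA of it per cell cannot be told apart. No counting intervals of these levels overlapped within a table. In order, the levels ran UNC0642, SP2509, combination and vehicle in one table, and shG9a with Dox, shLSD1 without Dox, shLSD1 with Dox and shG9a without Dox in the other.

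The FPKM ratio of MT2A to its control was 2.09 with SP2509 (interval 1.99 to 2.19), 3.12 with UNC0642 (2.99 to 3.27) and 1.93 with the combination (1.84 to 2.02). It was 2.15 in the shG9a line (2.04 to 2.26) and 0.843 in the shLSD1 line (0.800 to 0.889). MT2A therefore passed the fold upwards in 4 of the 5 comparisons. Its log2 fold of 1.64 with UNC0642 was exceeded by 1.13% of the 13244 genes tested, and its log2 fold of 1.09 in the shG9a line was exceeded by 3.74% of 13080 genes. With SP2509, 7.41% of 13342 genes had a higher log2 fold, and with the combination 14.3% of 13907 did. Both comparisons that target G9a alone had MT2A above control, while of those that target LSD1 alone the inhibitor had it above and the shRNA below.

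In the shLSD1 line the log2 fold of MT2A was -0.24 and did not pass the fold. Scaled by a trimmed mean it was -0.39 and passed downwards. The difference between the lines without Dox was larger than this change, since MT2A in the shG9a line without Dox was 0.714 times that in the shLSD1 line without Dox (interval 0.675 to 0.756). Against the mean of both libraries without Dox, the log2 fold of MT2A was -0.02 in the shLSD1 line and 0.83 in the shG9a line.

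**Figure D2:**
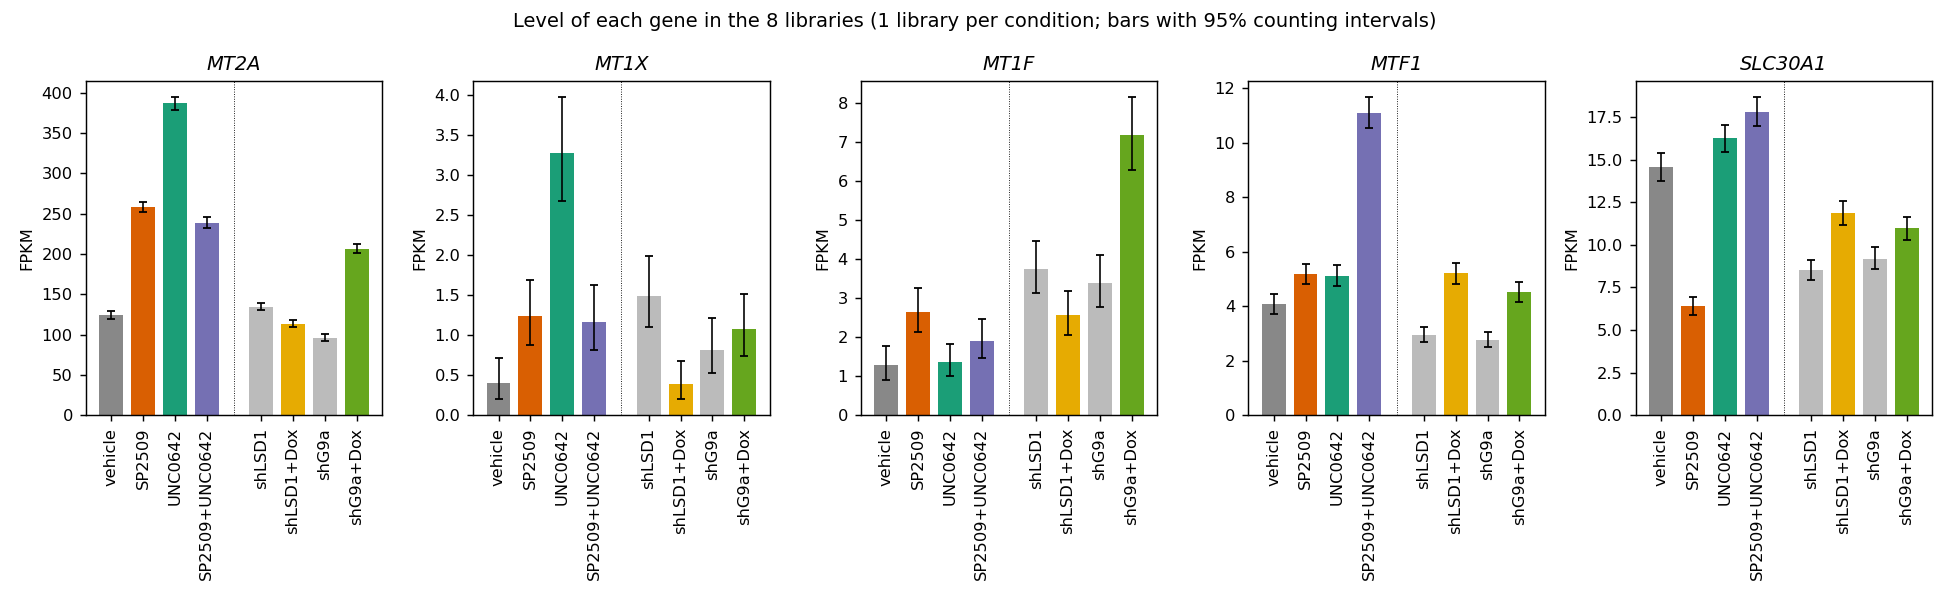
Level of each gene in each library (y axis, FPKM, its own scale in each panel; bars are 1 library each, and error bars are exact 95% counting intervals). The dotted line parts the inhibitor table from the knockdown table. MT2A runs from 96.3 to 386 FPKM, while MT1X and MT1F stay under 8 FPKM.

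MT1X, one of the MT1 isoforms that many tissues induce with metals, was low and rested on few reads. It lies at chr16:56682424-56684196 (+ strand, ENSG00000187193), and a long non-coding RNA is annotated over it on the same strand, so their reads may not be told apart. MT1X read 0.396 FPKM with vehicle (11 reads), 1.24 FPKM with SP2509 (39 reads), 3.28 FPKM with UNC0642 (104 reads) and 1.17 FPKM with the combination (35 reads). In the knockdown table it read 1.49 FPKM in the shLSD1 line without Dox (47 reads) and 0.387 FPKM with Dox (12 reads), and 0.818 FPKM in the shG9a line without Dox (24 reads) and 1.07 FPKM with Dox (33 reads). Its inhibitor libraries stood in the same order as those of MT2A, although SP2509 and the combination differed by less than counting error (ratio 0.947, 0.582 to 1.53).

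The FPKM ratio of MT1X was 3.12 with SP2509 (1.57 to 6.75), 8.28 with UNC0642 (4.44 to 17.1) and 2.95 with the combination (1.47 to 6.44). The ratio in the shLSD1 line was 0.259 (0.125 to 0.496). MT1X passed the fold upwards in the 3 inhibitor libraries and downwards in the shLSD1 line. In each of these comparisons it reached 1 FPKM in only 1 of the 2 libraries, so each call was fixed by the filter. In the shG9a line the ratio was 1.31, and its interval of 0.753 to 2.32 included 1. The 2 lines without Dox also differed, with a ratio of 0.548 (0.321 to 0.915) of shG9a to shLSD1.

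MT1F, another MT1 isoform, lies at chr16:56657694-56660698 (+ strand, ENSG00000198417). MT1F read 1.28 FPKM with vehicle, 2.65 FPKM with SP2509, 1.36 FPKM with UNC0642 and 1.91 FPKM with the combination, on 38 to 89 reads. In the knockdown table it read 3.76 FPKM in the shLSD1 line without Dox and 2.57 FPKM with Dox, and 3.39 FPKM in the shG9a line without Dox and 7.18 FPKM with Dox, on 85 to 235 reads. The order of the inhibitor libraries was within counting error from each to the next, with ratios of 0.723 (0.513 to 1.01) of the combination to SP2509, 1.41 (0.943 to 2.11) of the combination to UNC0642 and 1.06 of UNC0642 to vehicle. SP2509 lay beyond counting error above UNC0642 and vehicle, and the shG9a line with Dox above each other knockdown library.

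The FPKM ratio of MT1F was 2.06 with SP2509 (1.39 to 3.10) and 2.12 in the shG9a line (1.68 to 2.69), and both passed the fold. It was 0.684 in the shLSD1 line (0.513 to 0.908), which passed downwards. Against the mean of both libraries without Dox, the log2 fold of MT1F in that line was -0.36 and did not pass. With UNC0642 the ratio was 1.06, with an interval of 0.675 to 1.67 that included 1. With the combination the ratio was 1.49 (0.977 to 2.30). The log2 fold of 0.35 passed the fold only with the trimmed mean subtracted (0.39). Rescaling the FPKM would give a smaller shift at this level, so a call is not shown. MT1F was at 0.415 times the FPKM of MT1X with UNC0642 and at 1.64 to 6.68 times in every other library, where the lengths behind the values of both genes were similar (1889 and 1773 bases).

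The metallothionein genes lie side by side and are similar in sequence, so reads of one copy can be counted for another, and the low values of MT1X and MT1F beside those of MT2A are uncertain for this reason. Of 13 other metallothionein genes and pseudogenes on the list, 2 were listed in the inhibitor table (MT1DP and MT1P1) and 1 in the knockdown table (MT1P1). MT1DP had at most 1 read and MT1P1 at most 2 reads in a library. The pseudogenes MT1XP1 and MT2P1, which were added after their values were seen, had at most 4 and 9 reads.

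MTF1, the zinc sensor that acts on these genes, lies at chr1:37809567-37859620 (− strand, ENSG00000188786). MTF1 read 4.07 FPKM with vehicle, 5.17 FPKM with SP2509, 5.12 FPKM with UNC0642 and 11.1 FPKM with the combination. In the knockdown table it read 2.96 FPKM in the shLSD1 line without Dox and 5.20 FPKM with Dox, and 2.77 FPKM in the shG9a line without Dox and 4.50 FPKM with Dox. Every treated library lay above its control. The 2 single inhibitors did not differ beyond counting error (ratio of UNC0642 to SP2509 0.990, 0.893 to 1.10), and neither did the 2 lines without Dox (0.936, 0.811 to 1.08).

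The combination had the largest change of MTF1, with an FPKM ratio of 2.73 to vehicle (2.47 to 3.03) and a log2 fold of 1.26 that 8.55% of genes exceeded. The level with the combination was 2.15 times that with SP2509 (1.96 to 2.35) and 2.17 times that with UNC0642 (1.98 to 2.37). The ratio was 1.76 in the shLSD1 line (1.56 to 1.99) and 1.63 in the shG9a line (1.43 to 1.86), and both passed the fold. In the shG9a line the log2 fold of 0.55 no longer passed with the trimmed mean subtracted (0.36). Rescaling the FPKM would give a smaller shift at this level, so loss of the call is not shown. With SP2509 the ratio was 1.27 (1.13 to 1.43) and the log2 fold of 0.29 did not pass, while after centring (0.38) or trimmed mean scaling (0.48) it did. With UNC0642 the log2 fold was 0.27 and did not pass under any of the 3 scales.

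SLC30A1, the exporter, lies at chr1:211571568-211578742 (− strand, ENSG00000170385). SLC30A1 read 14.5 FPKM with vehicle, 6.40 FPKM with SP2509, 16.2 FPKM with UNC0642 and 17.8 FPKM with the combination. In the knockdown table it read 8.52 FPKM in the shLSD1 line without Dox and 11.9 FPKM with Dox, and 9.20 FPKM in the shG9a line without Dox and 11.0 FPKM with Dox. SP2509 was the single treated library under its control.

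The FPKM ratio of SLC30A1 was 0.440 with SP2509 (0.399 to 0.485), where 11.0% of genes had a lower log2 fold than its -1.07. It was 1.12 with UNC0642 (1.04 to 1.20) and 1.22 with the combination (1.14 to 1.32), and neither passed the fold. The level with the combination was 2.78 times that with SP2509 alone (2.53 to 3.05) and 1.10 times that with UNC0642 alone (1.02 to 1.17). The ratio was 1.39 in the shLSD1 line (1.27 to 1.52) and 1.19 in the shG9a line (1.09 to 1.31). The shLSD1 value, a log2 fold of 0.43, passed the fold as deposited, but not after centring (0.32) or trimmed mean scaling (0.29). The 2 lines without Dox did not differ beyond counting error (1.08, 0.980 to 1.19), nor did the 2 lines with Dox (0.925, 0.849 to 1.01).

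Counted by comparison, SP2509 had 3 genes past the fold upwards (MT2A, MT1X and MT1F) and 1 downwards (SLC30A1), where 21.0% of all genes tested passed upwards and 39.9% downwards. UNC0642 had 2 upwards (MT2A and MT1X) and 0 downwards, against 18.2% and 16.9% of all genes. The combination had 3 upwards (MT2A, MT1X and MTF1) and 0 downwards, against 31.4% and 31.7%. The shLSD1 line had 2 upwards (MTF1 and SLC30A1) and 2 downwards (MT1X and MT1F), against 24.8% and 12.3%. The shG9a line had 3 upwards (MT2A, MT1F and MTF1) and 0 downwards, against 32.9% and 17.6%. The calls of MT1X among them were fixed by the filter, as said above. With 5 genes, these counts are small and are given as a description.

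The background moved with the scale in some comparisons. The share of upward genes among all genes past the fold was 34.5% with SP2509 as deposited and 49.2% after trimmed mean scaling. It was 66.8% and 45.3% in the shLSD1 line, and 65.2% and 43.9% in the shG9a line. A fold of 2 was passed upwards by MT2A with SP2509 (8.25% of all genes upwards and 13.0% downwards), where SLC30A1 passed it downwards. With UNC0642 MT2A and MT1X passed it upwards (4.79% upwards and 3.12% downwards), with the combination MTF1 did (13.0% and 9.57%), and in the shG9a line MT2A did (5.13% and 6.02%). In the shLSD1 line 0 of the 5 genes passed it (3.36% and 3.27%).

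**Figure D3:**
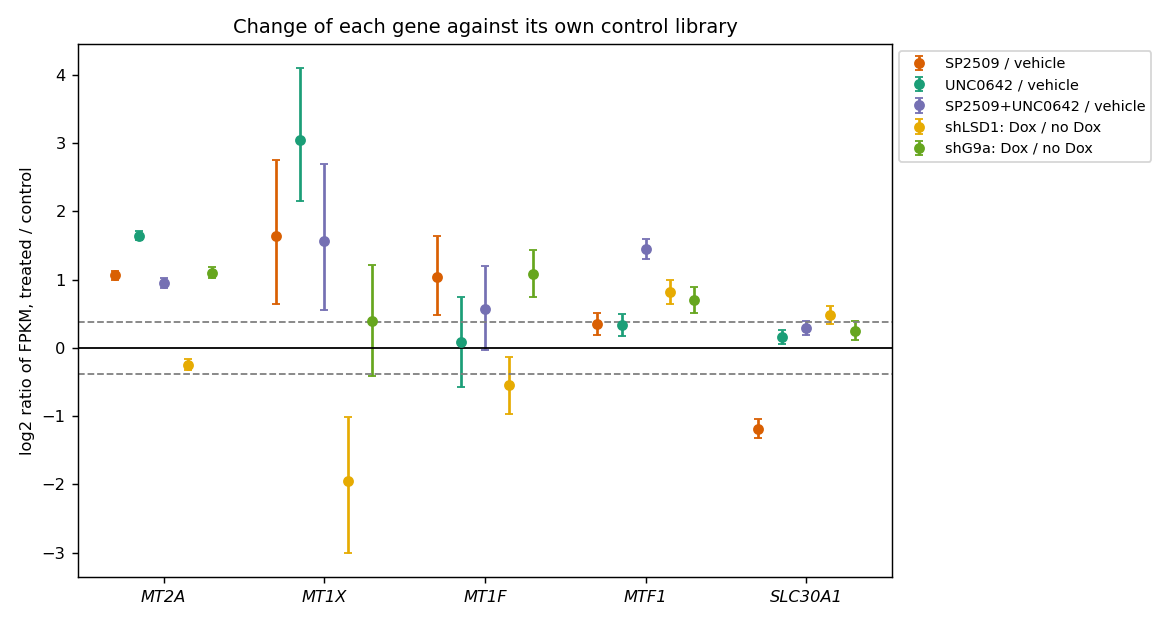
Log2 ratio of FPKM in the treated library to its own control (y axis, no pseudocount) for 5 genes and 5 comparisons; bars are exact 95% counting intervals, and dashed lines mark a fold of 1.3. MT2A is above 0 in 4 comparisons at ratios of 1.93 to 3.12, and SLC30A1 with SP2509 lies well below 0 at a ratio of 0.440.

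The log2 fold of the combination was set beside the sum of the single inhibitors for the 5 genes, and no interval was computed for the difference. For MT2A the log2 folds of the single inhibitors sum to 2.69, while the combination had 0.94, a difference of -1.75. Its level with both inhibitors was 0.618 times that with UNC0642 alone (0.597 to 0.639) and 0.924 times that with SP2509 alone (0.890 to 0.959). MT1X also fell short of its sum (2.29), by a difference of -1.66, and was at 0.357 times its level with UNC0642 alone (0.236 to 0.528). For MTF1 and SLC30A1 the combination lay above the sum, by 0.70 and 1.19 on the log2 scale. For MT1F the difference was -0.37, on 38 to 89 reads per library. Its level with the combination was within counting error of those with vehicle, SP2509 and UNC0642, so a departure is not shown for MT1F. All these values share the vehicle library, and no replicate spread is known for them.

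The other zinc transporters were described from lists of both families, and the counts are read against the shares of all genes past the fold given above and against the median log2 fold over all genes tested (-0.21 with SP2509, -0.01 with UNC0642, -0.02 with the combination, 0.13 in the shLSD1 line and 0.18 in the shG9a line). Of 9 other zinc exporters of the SLC30 family, 4 or 5 passed the filter of 1 FPKM. With SP2509, 0 of 4 passed the fold upwards and 3 downwards, where 21.0% of all genes passed upwards and 39.9% downwards, and their median log2 fold was -0.79. SLC30A5, SLC30A6 and SLC30A7, which load zinc into the secretory pathway, had log2 folds of -1.05, -0.76 and -0.82 there, beside the -1.07 of SLC30A1. With UNC0642, 0 of 4 passed in either direction.

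With the combination, 1 of 5 exporters passed upwards and 1 downwards. SLC30A3, known from synaptic vesicles, went from 0.331 to 3.08 FPKM and passed the filter only through the library in which it is high, so its upward call was fixed by the filter, and SLC30A9, a mitochondrial zinc transporter, went from 6.66 to 3.07 FPKM. In the shLSD1 line 2 of 4 passed upwards (SLC30A6, 0.55, and SLC30A7, 0.56), where 24.8% of all genes did, and in the shG9a line 1 of 4 did (SLC30A6, 0.44), where 32.9% of all genes did, with 0 downwards in both lines. The medians of the exporters were 0.37 and 0.26 in the 2 lines.

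Of 14 zinc importers of the SLC39 family, 11 passed the filter in the inhibitor table and 10 in the knockdown table. With SP2509, 1 passed the fold upwards and 5 downwards, where 21.0% and 39.9% of all genes did, and the median log2 fold of -0.27 was near that of all genes. SLC39A10, a plasma membrane importer, read 5.02 FPKM with vehicle and 13.3 FPKM with SP2509, a log2 fold of 1.24. SLC39A14, which carries zinc, iron and manganese, read 47.6 and 21.4 FPKM, and SLC39A7, which releases zinc from the endoplasmic reticulum, read 50.9 and 23.7 FPKM. With UNC0642, 4 passed upwards and 1 downwards (18.2% and 16.9% of all genes, median 0.18), with SLC39A10 at 11.4 FPKM (log2 fold 1.04), SLC39A6 at 0.52 and SLC39A14 at -0.78.

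With the combination, 6 importers passed upwards and 2 downwards (31.4% and 31.7% of all genes, median 0.39), and SLC39A8, a zinc and manganese importer, read 9.87 FPKM with vehicle and 4.20 FPKM with both inhibitors. In the shLSD1 line 4 passed upwards and 1 downwards (24.8% and 12.3% of all genes, median 0.22). SLC39A8 had the largest change on either list there, from 3.06 to 34.3 FPKM, a log2 fold of 3.12. In the shG9a line 2 passed upwards and 1 downwards (32.9% and 17.6% of all genes, median 0.15), and SLC39A8 read 4.31 FPKM without and with Dox. SLC39A14 had a log2 fold of -0.62 in the shLSD1 line and -0.86 in the shG9a line, and with the combination it passed the fold upwards (0.55, from 47.6 to 70.4 FPKM). SLC39A1 read 50.6 to 81.2 FPKM in the inhibitor table and at most 0.489 FPKM in the knockdown table, so levels were not compared between the tables.

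**Figure D4:**
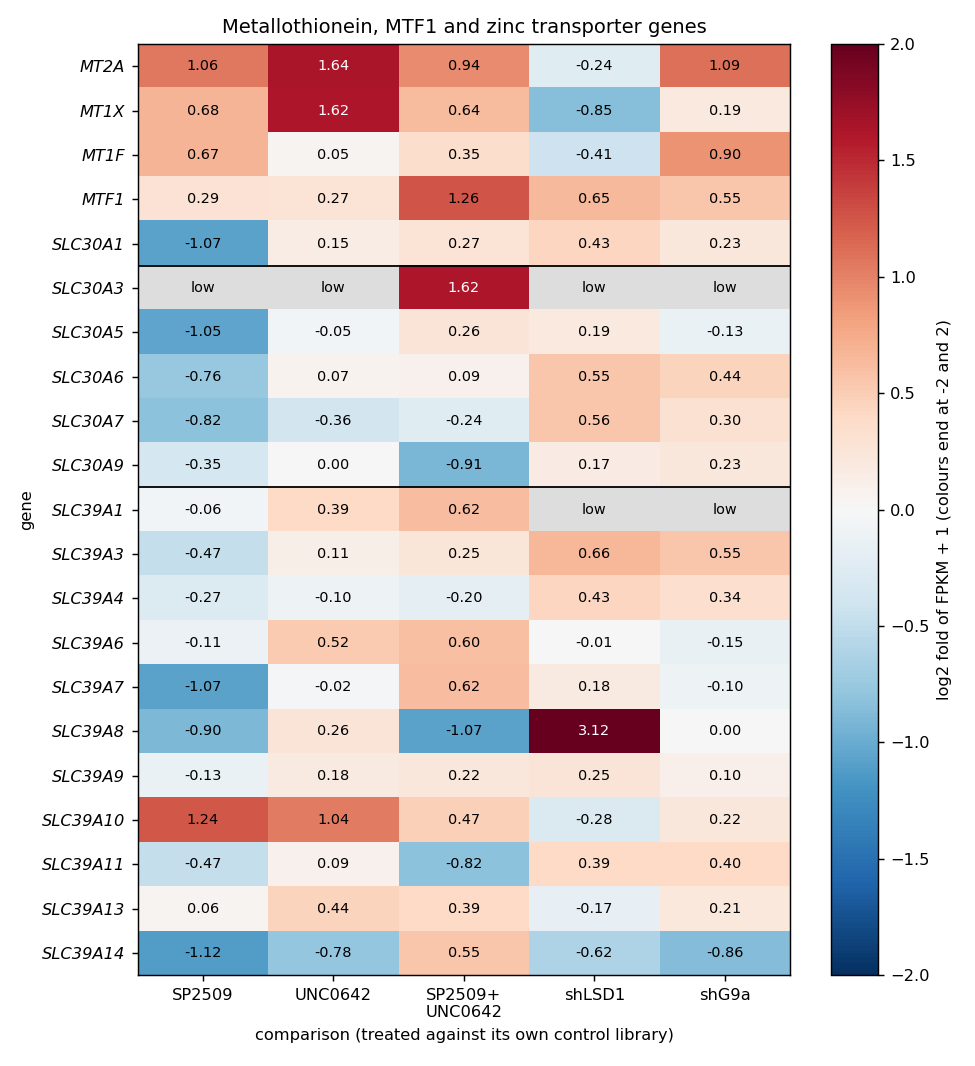
Log2 fold of FPKM + 1 (colour, number in each cell) for the 5 zinc response genes, the other zinc exporters (SLC30) and the zinc importers (SLC39) in 5 comparisons; cells marked low had under 1 FPKM in both libraries. SLC39A8 in the shLSD1 line (3.12) is the highest value, and the SP2509 column holds values of -1.05 to -1.12 for SLC30A1, SLC30A5, SLC39A7 and SLC39A14.

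Metallothioneins also bind copper, and of 11 copper handling genes 8 passed the filter in each comparison. With SP2509, 0 passed the fold upwards and 3 downwards, beside 21.0% and 39.9% of all genes, and the median log2 fold of -0.21 was that of all genes. The counts were 1 and 0 with UNC0642 (18.2% and 16.9% of all genes), 4 and 1 with the combination (31.4% and 31.7%), 2 and 1 in the shLSD1 line (24.8% and 12.3%), and 4 and 1 in the shG9a line (32.9% and 17.6%). The medians were 0.09, 0.20, 0.17 and 0.30. COX17, a copper chaperone of mitochondria, had a log2 fold of 1.12 with the combination, and SLC31A1, the copper importer, had -1.01 in the shG9a line.

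Genes of metal and oxidative stress that heavy metals also induce were counted next. Of 9 tested, 1 passed upwards and 5 downwards with SP2509 (21.0% and 39.9% of all genes), 4 and 2 with UNC0642 (18.2% and 16.9%), 6 and 2 with the combination (31.4% and 31.7%), 3 and 2 in the shLSD1 line (24.8% and 12.3%), and 3 and 6 in the shG9a line (32.9% and 17.6%). The median log2 folds were -1.04, 0.23, 0.75, -0.03 and -0.59 in this order. HMOX1, heme oxygenase and a known cadmium-responsive gene, had log2 folds of -1.29 after SP2509, 1.13 after UNC0642, 2.57 after both together, 0.44 in the shLSD1 line and 0.46 in the shG9a line, against 1.06, 1.64, 0.94, -0.24 and 1.09 for MT2A. The heat shock gene HSPA1A had 1.63 with UNC0642 and 2.63 with the combination, and its near-identical copy HSPA1B had 1.47 and 2.30, values that may share reads. SLC7A11, the cystine transporter, had -3.26 with SP2509, -1.06 with UNC0642, -2.12 with both, 0.93 in the shLSD1 line and -2.13 in the shG9a line. GCLC, the catalytic subunit of the first enzyme of glutathione synthesis, had -2.83, -1.85, -2.11, -0.03 and -1.15 in the same order. GCLM, its partner subunit, and NQO1, a quinone reductase, also passed a fold of 2 downwards with SP2509. DNAJB1, a heat shock co-chaperone, passed it upwards with the combination (1.02).

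Of 9 genes that glucocorticoids are known to regulate, 6 to 8 were tested. With SP2509, 4 of 7 passed upwards and 2 downwards (21.0% and 39.9% of all genes), with UNC0642 3 and 3 of 7 (18.2% and 16.9%), with the combination 5 and 2 of 8 (31.4% and 31.7%), in the shLSD1 line 2 and 3 of 6 (24.8% and 12.3%), and in the shG9a line 0 and 4 of 6 (32.9% and 17.6%). Of the 5 upward with the combination, 1 went from 0.123 to 1.11 FPKM. It passed the filter only through the library in which it is high, so its upward call was fixed by the filter. The median log2 folds were 1.87, 0.32, 0.77, -0.70 and -1.49. TSC22D3 (GILZ), a direct target of the glucocorticoid receptor, had log2 folds of -1.99 with SP2509, -2.50 with UNC0642, -1.13 with both, 0.41 in the shLSD1 line and -0.99 in the shG9a line. DUSP1, a phosphatase of MAP kinases, had 4.40, 2.54, 4.33, -1.83 and -2.72 in the same order, and ERRFI1, an inhibitor of the EGF receptor, had 2.46, 1.54, 2.20, -3.33 and -3.95. SGK1, a kinase, had 2.95, 1.71, 1.18, 0.87 and 0.05. PER1 had 1.87, -0.59, 0.63, -1.19 and -1.98. NR3C1, the gene of the glucocorticoid receptor, had 0.28, -0.64, -1.68, -0.20 and -0.14.

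The neighbours of the metallothionein cluster on chromosome 16 were counted as well. Of 9 neighbours, 0 of 7 tested passed the fold upwards in any of the inhibitor libraries. Of all genes, 21.0% passed upwards with SP2509, 18.2% with UNC0642 and 31.4% with both. With both inhibitors 1 neighbour lay just under the fold, at a log2 fold of 0.37. Downwards, 3 passed with SP2509 (39.9% of all genes), 1 with UNC0642 (16.9%) and 2 with both (31.7%), shares near those of all genes. In the shLSD1 line 2 of 7 passed upwards and 0 downwards (24.8% and 12.3% of all genes), and in the shG9a line 3 of 6 passed upwards and 1 downwards (32.9% and 17.6%). The median log2 folds were -0.34, -0.08, -0.17, 0.08 and 0.39. HERPUD1, a component of protein disposal from the endoplasmic reticulum, had log2 folds of -2.87 with SP2509, -3.79 with UNC0642, -1.54 with the combination, -0.36 in the shLSD1 line and -2.96 in the shG9a line, where MT2A had 1.06, 1.64, 0.94, -0.24 and 1.09.

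The genes most like MT2A were found by the root mean square difference of the 5 log2 folds, over 7013 genes with at least 5 FPKM in each table. They were FAM210B (0.289), TAGLN2 (0.428), RNY4P10 (0.503), LUZP1 (0.510) and 1 of the genes named Y_RNA (0.534). In the shLSD1 line the first of these had log2 folds of 0.31, 0.14, 0.74 and 0.03 in this order, opposite in sign to MT2A (-0.24). Y_RNA had -0.29 there. The genes most like SLC30A1 lay closer to it, and were STRAP (0.115), AP1G1 (0.119), MSL1 (0.127), DDX3X (0.128) and RAE1 (0.130). The 5 comparisons share a control library in part, and the likeness is a description.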

How the data were processed

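RNA of 8 Kyse510 libraries was sequenced as paired reads of 150 bases. The authors removed low-quality reads and adapter sequence, aligned what remained to GRCh38 and deposited FPKM values per gene in 2 tables, 1 for the inhibitors and 1 for the knockdowns. The aligner, the counting tool and the use of strand are not given in the sources used here.

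From these values, log2((FPKM + 1)/(FPKM + 1)) was computed for genes with at least 1 FPKM in 1 of the 2 libraries, with a fold of 1.3, the fold threshold of the study's methods, in either direction. Whole reads were recovered from the FPKM values (tolerance 0.002). The library totals came from genes with 1 exon, of which all gave whole reads, and each other gene took the smallest length that did. For MT2A this was 1299 bases and for MT1X 1773 bases, the whole span of the gene model with its introns. The exons of GENCODE 44 cover 914 bases of MT2A and 1727 bases of MT1X. The FPKM of MT2A is therefore lower than a value per exon length would be, and that of MT1X only slightly. MT1F took 1889, MTF1 8024 and SLC30A1 5474 bases. Exact Poisson intervals of levels and exact binomial (Clopper-Pearson) intervals of ratios at 95% cover counting error only, as fragments without molecular identifiers are not independent molecules.

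The 5 genes analysed are named with values in every library, and from each list those past a fold of 2 or, for zinc transporters, with the 3 largest changes could be named. The genes and lists were chosen with earlier results of these data known. Positions are those deposited, and promoters are RefSeq's. Alternatives were the pseudocount, the filter, the fold, protein-coding genes alone, centring, trimmed mean scaling and a joint control. Reads and folds were tested on simulated data. Python 3.11.15, scipy 1.17.1, numpy 2.4.6 and pandas 2.3.3 were used, with GENCODE 44 for exons.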

Additional observations from a re-analysis of the deposited data

Results flagged for a closer look

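The inhibitor and the knockdown of LSD1 stood on opposite sides of their controls for 4 of the 5 genes, beyond counting error on both sides. Of all genes tested, 21.0% passed the fold upwards and 39.9% downwards with SP2509, against 24.8% and 12.3% in the shLSD1 line. The share of all genes on opposite sides was not counted, so the 4 of 5 is not read as a trait of these genes. MT2A had a log2 fold of 1.06 with SP2509 and -0.24 in the shLSD1 line, a difference of 1.3, although the second value did not pass the fold and was -0.02 against the mean of both libraries without Dox. MT1X had a log2 fold of 0.68 with SP2509 and -0.85 in the shLSD1 line, a difference of 1.53 that rests on 11 to 47 reads per library. MT1F had 0.67 and -0.41, a difference of 1.09, although the second value did not pass the fold against the mean of both libraries without Dox (-0.36). SLC30A1 had -1.07 and 0.43, a difference of -1.50, although its value in the shLSD1 line did not pass the fold after centring (0.32). Each side has 1 library, and the differences were not tested.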

How the results depend on the processing

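With at least 5 FPKM required, the number of genes past the fold was 2 in place of 4 with SP2509, 1 in place of 2 with UNC0642 and 2 in place of 4 in the shLSD1 line, because MT1X and MT1F lay under it there. At a fold of 2 it was 2 with SP2509, 1 with the combination, 0 in the shLSD1 line and 1 in the shG9a line. The departure of the combination from the sum of both inhibitors for MT2A was -1.75 as deposited, -1.88 after centring and -1.92 after trimmed mean scaling, both chosen after seeing the data. Over all settings the log2 fold of MT2A lay between 1.06 and 1.25 with SP2509, 1.64 and 1.65 with UNC0642, 0.91 and 0.98 with the combination, 0.83 and 1.10 in the shG9a line, and -0.39 and -0.02 in the shLSD1 line. Of the other values, 43 counts or departures and 204 values of single genes stayed within 1.5 times or within counting error, and 21 values of single genes moved. Many of the 204 were fixed in advance, because changing the filter or the fold, or keeping protein-coding genes alone, leaves the log2 fold of a gene as it is. No value past the fold changed sign. MT1X in the shG9a line, which did not pass it, was 0.19 and changed to -0.06 against the mean of both libraries without Dox. No paired analysis was possible because each condition has 1 library and no test was run. For MT1X, with 11 reads in vehicle, the pseudocount sets the size of the change, with a log2 fold of 1.62 with UNC0642 that was 3.05 with no pseudocount, a setting also chosen after seeing the data.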
